A study of Mus musculus with 24 samples.

Results

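AP-1 and immediate early genes were followed through 24 RNA-seq libraries of blood monocytes, sorted from mice after treatment of the skin with imiquimod (IMQ) or Sham crème. The group comprised *Fos*, *Fosb*, *Fosl2*, *Jun*, *Junb*, *Jund*, *Egr1*, *Ier2*, *Dusp1* and *Atf3*, picked by gene name, 10 of the 53715 genes in the deposited table. The mice were C57BL/6 animals of 8-10 weeks, either wild type (wt) or N2ΔMy, whose floxed *Notch2* is cut out in myeloid cells by Cre under control of the *Lyz2* gene. N2ΔMy mice also carried a *Cx3cr1* GFP reporter allele, and the sort required GFP in both genotypes. Per the study's methods the gate also took CD11b+ CD115+ cells that lacked MHC-II and the lineage markers, among them Ly6G of neutrophils and Ter119 of red cells, so it was set to leave out neutrophils, red cells and MHC-II+ dendritic cells. IMQ mice received 50 mg of Aldara, a crème with 5% imiquimod (an agonist of the RNA sensor Toll-like receptor 7), per day for 4-5 days, and Sham mice received Vaseline. In the study's methods the controls of the sequenced sorts are called untreated. Cells were sorted on day 5 as Ly6Chi monocytes, the classical subset that leaves the bone marrow, or Ly6Clo monocytes, the subset that patrols the vessel wall. There were 6 groups of 4 libraries, which GEO calls biological replicates without saying whether each was 1 mouse: wt Ly6Chi Sham, N2ΔMy Ly6Chi Sham, wt Ly6Chi IMQ, N2ΔMy Ly6Chi IMQ, wt Ly6Clo IMQ and N2ΔMy Ly6Clo IMQ, and no Ly6Clo Sham library was analysed here. Values are normalized counts, that is reads per gene divided by a library size factor and rounded by the authors to whole numbers.

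AP-1 is a dimer of bZIP proteins, usually a Fos protein (*Fos*, *Fosb*, *Fosl2*) with a Jun protein (*Jun*, *Junb*, *Jund*), and it binds the DNA sequence TGANTCA. *Fos*, *Fosb*, *Egr1*, *Ier2*, *Dusp1* and *Atf3* are immediate early genes: in many cell types their RNA rises within minutes of a stimulus, without new protein synthesis, through MAP kinases acting on factors already bound at the promoter. The RNAs are short-lived, and in monocytes and macrophages they respond to Toll-like receptor ligands, to adhesion and to handling of the cells.

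The library numbers in the labels fell into a pair of runs, called library series 1 (replicates 1 and 2 of every group) and library series 2 (replicates 3 and 4). What else separated them (mice, days or sequencing) is not given in the sources used here. Within a group, libraries of the same series correlated at r = 0.966 to 0.984 over the genes tested and libraries of different series at 0.944 to 0.962. The read depth, recovered from the rounding of the values, was 9520037 to 19759572 gene reads per library, with a median of 15582085 in series 1 and 11943019 in series 2. The targeted gene, *Notch2*, read 12656 to 20005 normalized counts in the wt libraries and 7240 to 11518 in the N2ΔMy libraries, so part of its RNA remained. The label of the subset was checked on marker genes. The summed level of 8 Ly6Chi markers was 167856 to 292552 in the Ly6Chi libraries, 4080 to 8572 in wt Ly6Clo IMQ and 38883 to 71503 in N2ΔMy Ly6Clo IMQ. That of 9 Ly6Clo markers was 175943 to 203164 in wt Ly6Clo IMQ and 101511 to 117026 in N2ΔMy Ly6Clo IMQ, against 23598 to 55833 in the Ly6Chi libraries. In sorted bulk samples, a change in the share of a cell type and a change in RNA per cell cannot be told apart.

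The proximal promoters of the 4 members whose levels split by library series (*Fos*, *Fosb*, *Jun* and *Dusp1*) are shown first, as RefSeq sequence of GRCm38.p6 from the 250 bases before each start site, without bases of the genes' own exons. Capitals mark TGACG, the core of the cAMP response element bound by CREB and ATF factors, the full element TGACGTCA, which holds that core on both strands, or the EGR site GCGNGGGCG.
Fos, chr12:85473640-85473889, plus strand: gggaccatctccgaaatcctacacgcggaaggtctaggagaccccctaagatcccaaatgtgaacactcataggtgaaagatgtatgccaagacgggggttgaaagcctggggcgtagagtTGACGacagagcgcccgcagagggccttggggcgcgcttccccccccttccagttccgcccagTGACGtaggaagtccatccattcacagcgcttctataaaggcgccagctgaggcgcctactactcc
Fosb, chr7:19310052-19310295, minus strand: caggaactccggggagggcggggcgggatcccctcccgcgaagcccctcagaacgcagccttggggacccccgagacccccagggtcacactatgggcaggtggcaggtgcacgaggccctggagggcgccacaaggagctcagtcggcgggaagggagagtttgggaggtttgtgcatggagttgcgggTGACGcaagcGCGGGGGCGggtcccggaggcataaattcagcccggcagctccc
Jun, chr4:95052223-95052472, minus strand: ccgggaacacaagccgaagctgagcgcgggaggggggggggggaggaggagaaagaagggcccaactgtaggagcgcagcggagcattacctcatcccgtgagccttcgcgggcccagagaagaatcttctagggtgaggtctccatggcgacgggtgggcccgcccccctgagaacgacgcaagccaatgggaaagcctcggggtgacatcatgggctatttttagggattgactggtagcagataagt
Dusp1, chr17:26508520-26508722, minus strand: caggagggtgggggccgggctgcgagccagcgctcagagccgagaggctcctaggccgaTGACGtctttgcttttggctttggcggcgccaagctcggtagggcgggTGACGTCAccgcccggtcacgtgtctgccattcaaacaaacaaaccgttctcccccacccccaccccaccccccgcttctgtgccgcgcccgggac

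The windows of 8 members were found in the RefSeq table, all but *Egr1* and *Ier2*. Searched on both strands, 5 of the 8 held TGACG (*Fos*, *Fosb*, *Junb*, *Dusp1* and *Atf3*), against 17.9% of 32536 promoter windows of the same length. Those 5 windows were 58.4% to 68.8% G or C, and those of *Fosl2*, *Jun* and *Jund* 64.4%, 61.2% and 47.6%. The median over all windows was 52.4%, and the shares were not matched for base content. The motif TGACG was added after the windows had been seen. In *Fos* it began 129 and 66 bases before the start site, and in *Fosb* 60 bases before it, next to an EGR site 50 to 42 bases before the start. The full TGACGTCA stood in *Dusp1* alone, 143 to 136 bases before the start, against 1.56% of windows. An EGR site was found in *Fosb* and *Fosl2* (4.74% of windows). The 250 bases of the *Fosl2* window all lie in annotated exons of *Fosl2* itself, and the TGACG match of *Atf3*, 7 to 3 bases before the start, lies in annotated exon of *Atf3*. The AP-1 site TGANTCA (6.73% of windows) and the CArG box bound by serum response factor (1.48%) had no match in the 8 windows, which says only that these letters do not occur in these 250 bases.

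The members covered a wide range of levels. Per kilobase of exon, and as a median over the 24 libraries, *Fos* (2352 bp of exon, chr12:85473890-85477273) stood highest at 1981 normalized counts, followed by *Junb* at 1235, *Dusp1* at 1109 and *Ier2* at 1054. *Atf3* (370), *Jun* (337) and *Fosl2* (285) lay lower, and *Egr1* (35.7) and *Fosb* (26.9) lower still. *Jund* was listed at 0 in 19 of 24 libraries and read at most 5. *Jund* shares 877 of its 1668 exon bases with the antisense gene RP23-410L16.3, and its annotated start in the deposited data lies 1210 bases downstream of the RefSeq start. The part of either in its low level was not tested, and the level is not read as that of the gene's RNA. *Jun* shares 232 exon bases with *Junos* and *Junb* 173 with *Prdx2*, both on the other strand. The test took the 11230 genes that reached 50 normalized counts in some library, among them 9 of the 10 members, all but *Jund*.

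**Figure D1:**
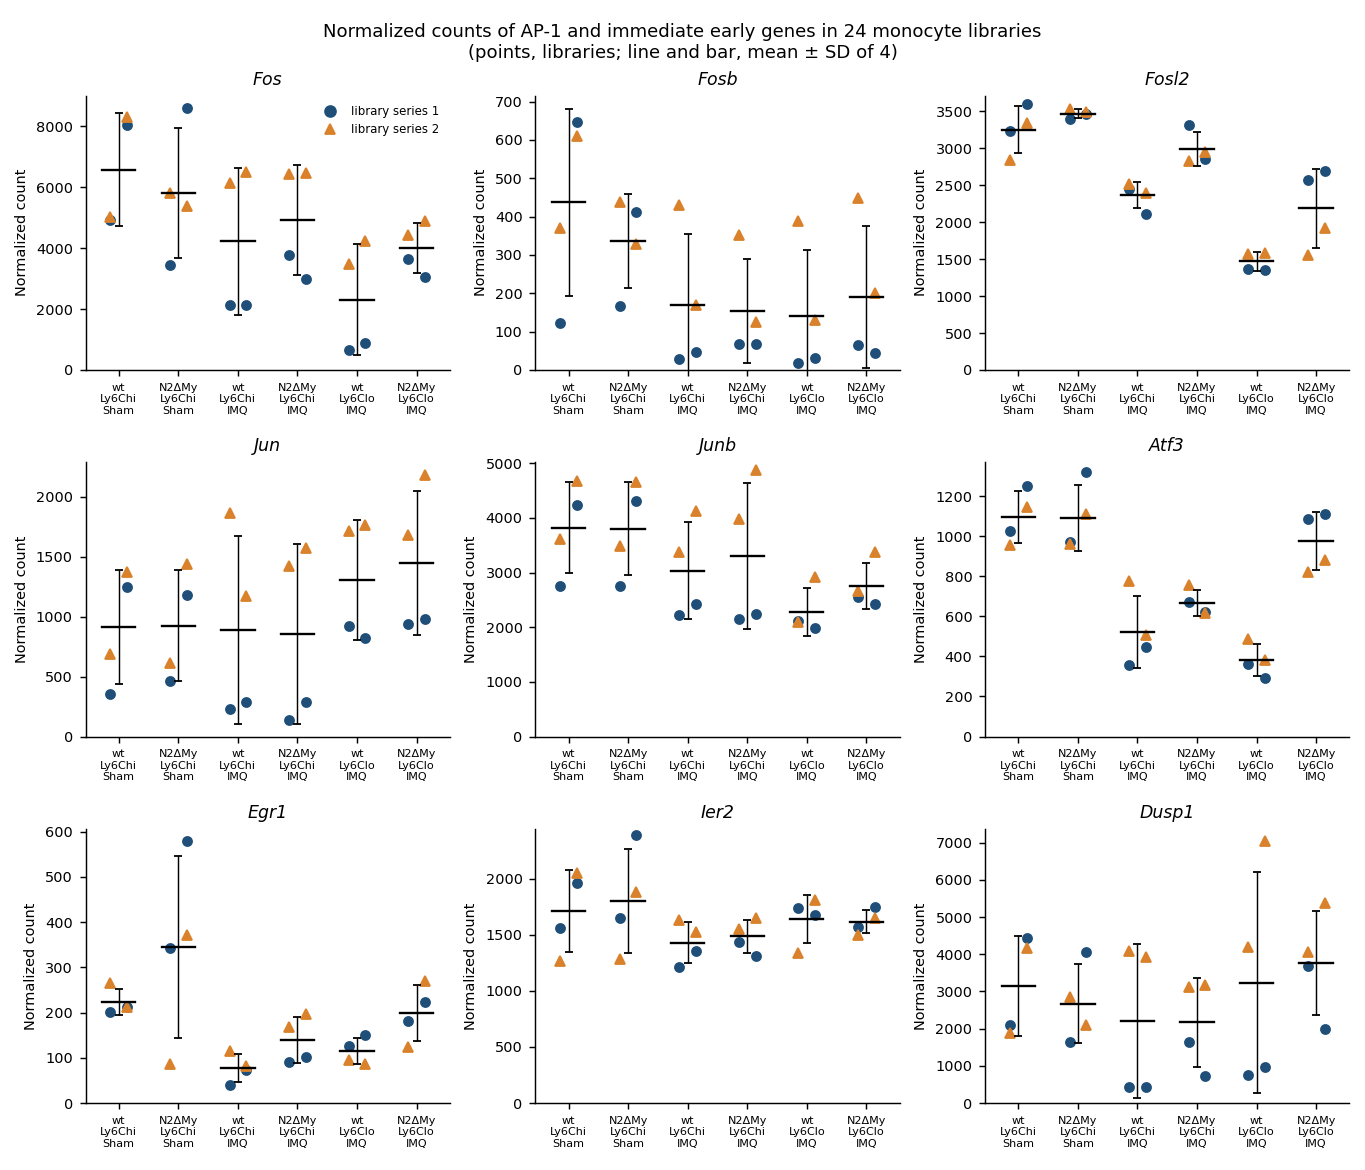
Normalized counts of the 9 tested members in the 24 libraries, by group, with circles for library series 1 and triangles for series 2. *Atf3* lay between 955 and 1318 in the 8 Ly6Chi Sham libraries and between 356 and 775 in the 8 Ly6Chi IMQ libraries.

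The first comparison asked what IMQ treatment did to these genes in Ly6Chi monocytes. *Atf3*, a bZIP factor of the ATF family that restrains transcription of inflammatory genes, fell in both genotypes. In wt it read 1025, 1248, 955 and 1146 normalized counts in the Sham libraries (replicates 1 to 4) and 356, 449, 775 and 505 in the IMQ libraries. In N2ΔMy the Sham libraries read 971, 1318, 962 and 1112 and the IMQ libraries 672, 621, 758 and 616. All 16 libraries thus fell on their own side, with the highest IMQ value below the lowest Sham value in each genotype. By limma on log2(value + 1), the log2 fold change of *Atf3* was -1.12 ± 0.20 (SE, n = 4 against 4, adjusted p = 0.00403) in wt and -0.70 ± 0.12 (adjusted p = 0.00396) in N2ΔMy. Genes counted as called when the p-value, adjusted over the 11230 genes (Benjamini-Hochberg), was no larger than 0.05 and the log2 fold change was 0.6 or more in either direction. Within series 1 and series 2 the *Atf3* difference was -1.50 and -0.74 in wt and -0.81 and -0.60 in N2ΔMy. With series 2 alone (2 libraries a group) it was not called in either genotype (adjusted p = 0.0711 in wt, and 0.0456 with a fold change under the threshold in N2ΔMy). Without the filter on low values the wt difference was not called either (adjusted p = 0.0575).

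*Egr1*, a zinc finger factor induced by the ERK pathway, fell in wt. Its levels were 202, 213, 266 and 213 in wt Sham and 40, 73, 114 and 81 in wt IMQ, groups that do not overlap, and the log2 fold change was -1.61 ± 0.28 (adjusted p = 0.00339). It was -1.92 within series 1 and -1.30 within series 2. In N2ΔMy, Sham libraries read 343, 580, 87 and 371 and IMQ libraries 90, 102, 169 and 197. The N2ΔMy groups overlapped through Sham replicate 3, and the difference of -1.09 ± 0.51 was not called (adjusted p = 0.206), whereas without that library it was -1.66 (adjusted p = 0.0101). The N2ΔMy difference was -2.21 within series 1 and 0.02 within series 2. *Fosl2*, which encodes the Fos protein Fra-2, read 3235, 3602, 2838 and 3340 in wt Sham and 2444, 2115, 2516 and 2401 in wt IMQ. Its N2ΔMy values were 3393 to 3530 in Sham and 2823 to 3321 in IMQ. In neither genotype did the IMQ and Sham libraries overlap. Its log2 fold changes of -0.46 (adjusted p = 0.00759) in wt and -0.22 (adjusted p = 0.0832) in N2ΔMy stayed under the fold threshold.

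Thus 2 of 9 members were called lower with IMQ in wt (*Egr1*, *Atf3*) and 1 of 9 in N2ΔMy (*Atf3*), none higher, where 9.49% and 8.7% of all genes tested were called. All 9 members had a fold change below 0 in both genotypes, with a median of -0.80 in wt and -0.44 in N2ΔMy against 0.01 over all genes in each. With the replicate number as a block in the model, *Fos* (-0.80, adjusted p = 0.0389) and *Fosb* (-1.87, adjusted p = 0.00961) were also called in wt, making 4 of 9 against 11.9% of all genes, and *Fosb* (-1.39, adjusted p = 0.0132) in N2ΔMy, making 2 of 9 against 9.89%. The library series as a covariate also gave 4 and 2, against 11.7% and 10.7% of all genes, and within a series the deviations of same-numbered IMQ and Sham libraries correlated at r = -0.116 to 0.0936. For the interaction of genotype and treatment limma called 0 of 9 members and 0% of all genes, with 0 of 9 members and 177 genes at an unadjusted p under 0.05. In exact permutation tests of single members, groups of 4 that do not overlap give the smallest two-sided p that 70 splits allow, 0.0286. No such p passed adjustment over the 63 tests made (smallest adjusted p = 0.18). At that smallest p, adjustment can be passed only if most of the 63 tests reach it, so this outcome says little about single members.

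The same contrast was then read within series 1 and series 2. *Fos*, the partner of Jun proteins in stimulated cells, read 2120 and 2117 in the wt IMQ libraries of series 1 and 6139 and 6484 in those of series 2. The corresponding wt Sham libraries read 4904 and 8022 in series 1 and 5025 and 8311 in series 2. In N2ΔMy the IMQ libraries read 3788 and 2988 in series 1 and 6433 and 6458 in series 2, beside Sham values of 3448 and 8596 in series 1 and 5822 and 5374 in series 2. In wt both series 1 IMQ libraries lay below all 4 Sham libraries, whereas in N2ΔMy replicate 1 lay above its Sham counterpart. The series 2 IMQ libraries lay within the range of all 4 Sham libraries in both genotypes, and in N2ΔMy above both Sham libraries of series 2.

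*Dusp1*, the phosphatase that switches off p38 and JNK, showed such a gap as well. Its wt IMQ libraries read 420 and 424 in series 1 and 4098 and 3914 in series 2, and the wt Sham libraries 2090, 4447, 1874 and 4172. The N2ΔMy IMQ libraries read 1635, 736, 3125 and 3172 and the N2ΔMy Sham libraries 1645, 4071, 2858 and 2111. The Sham libraries overlapped between the series, whereas every Ly6Chi IMQ library of series 1 was below every one of series 2. *Jun*, the main transactivating AP-1 subunit, read 230, 288, 1864 and 1170 in wt IMQ and 138, 285, 1418 and 1575 in N2ΔMy IMQ, with 353 to 1369 in wt Sham and 461 to 1441 in N2ΔMy Sham. *Fosb* read 28, 46, 431 and 170 in wt IMQ and 67, 68, 353 and 124 in N2ΔMy IMQ, against 122 to 646 in wt Sham and 166 to 437 in N2ΔMy Sham. Both genes again had their low IMQ values in series 1.

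With the genotypes averaged in 1 fit of the 16 Ly6Chi libraries, a comparison chosen after seeing the data, limma called 7 of 9 members lower with IMQ in series 1, where 11.7% of all genes were called. These were *Fosb* (-2.44), *Egr1* (-2.06), *Dusp1* (-2.04), *Jun* (-1.63), *Atf3* (-1.15), *Fos* (-1.13) and *Junb* (-0.61), and *Fosl2* (-0.37) and *Ier2* (-0.49) stayed under the fold threshold. In series 2 only *Atf3* was called (-0.67 ± 0.14, adjusted p = 0.00244), 1 of 9 members against 13.7% of all genes. There 5 of 9 members were below 0, and *Fosl2* (-0.30, adjusted p = 0.00638), close to its series 1 value, stayed under the fold threshold. *Fosb* (-0.83) and *Egr1* (-0.64) were below 0 and *Dusp1* (0.44), *Jun* (0.63) and *Fos* (0.08) above 0, and limma called none of these 5. The median of the 9 members was -1.15 in series 1 and -0.01 in series 2, beside 0.01 and 0.02 over all genes. In the same fits 3 of 29 other immediate early genes were called higher and 12 lower in series 1, against 4 higher and 1 lower in series 2. Of 10 heat shock genes that rise with handling of cells, 5 were called lower in series 1 (median -0.69) and 1 in series 2 (median -0.30), and their part in the levels of the members was not tested. A test of the difference between the series called 0 of 9 members and 0.0089% of all genes (1 gene, *Lyz1*), although 8 of 9 members and 952 of all genes had an unadjusted p under 0.05. *Dusp1* came nearest, with a difference of 2.48 ± 0.44 (adjusted p = 0.0822), followed by *Jun* with 2.26 ± 0.56 (adjusted p = 0.351) and *Fos* with 1.21 ± 0.32 (adjusted p = 0.371). On simulated data this test recovered 81, 156 and 179 of 200 genes changed by 1, 2 and 3 on the log2 scale.

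**Figure D2:**
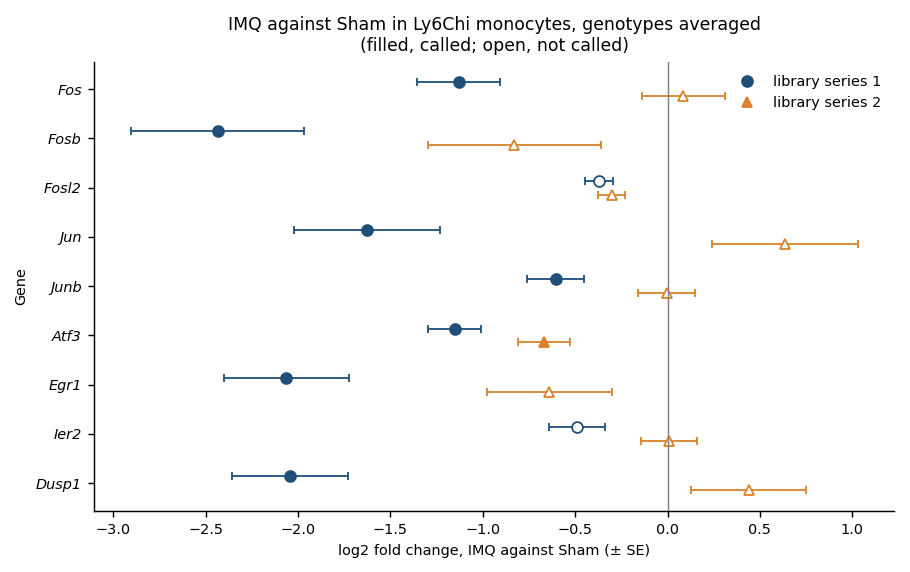
Log2 fold change of IMQ against Sham (± SE, limma) for each member in Ly6Chi monocytes with the genotypes averaged, for library series 1 (circles) and series 2 (triangles), filled where called. In series 1, 7 members are called, from -0.61 (*Junb*) to -2.44 (*Fosb*), and in series 2 only *Atf3* at -0.67.

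The library series was then compared within groups. Over all 24 libraries with group in the model, series 2 was higher than series 1 for *Fosb* (1.91 ± 0.32, adjusted p = 3.82e-05), *Jun* (1.39 ± 0.27, adjusted p = 0.000176), *Dusp1* (1.33 ± 0.30, adjusted p = 0.000998) and *Fos* (0.90 ± 0.20, adjusted p = 0.000758). *Junb* had an adjusted p of 0.000654 with a difference of 0.45, under the fold threshold. These were 4 of 9 members, where 8.99% of all genes were called. In none of the Sham groups did *Fos*, *Fosb*, *Jun* or *Dusp1* have both series 2 libraries above both series 1 libraries, and all 4 genes did in each of the 4 IMQ groups. These are the members just called for the series in the same libraries, so the order partly restates that call. The share of all genes with this order in every IMQ group and in no Sham group was not counted. Over the 9 members, both series 2 libraries lay above both series 1 libraries for 0 in wt Ly6Chi Sham, 1 in N2ΔMy Ly6Chi Sham (*Fosl2*), 8 in wt Ly6Chi IMQ, 7 in N2ΔMy Ly6Chi IMQ, 6 in wt Ly6Clo IMQ and 5 in N2ΔMy Ly6Clo IMQ. Between 22.3% and 29.9% of all genes tested had that order in any 1 group. The reverse order, with both series 1 libraries above, held for *Egr1* in wt Ly6Clo IMQ and for *Fosl2* and *Atf3* in N2ΔMy Ly6Clo IMQ, and for 23.4% to 29.1% of all genes.

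**Figure D3:**
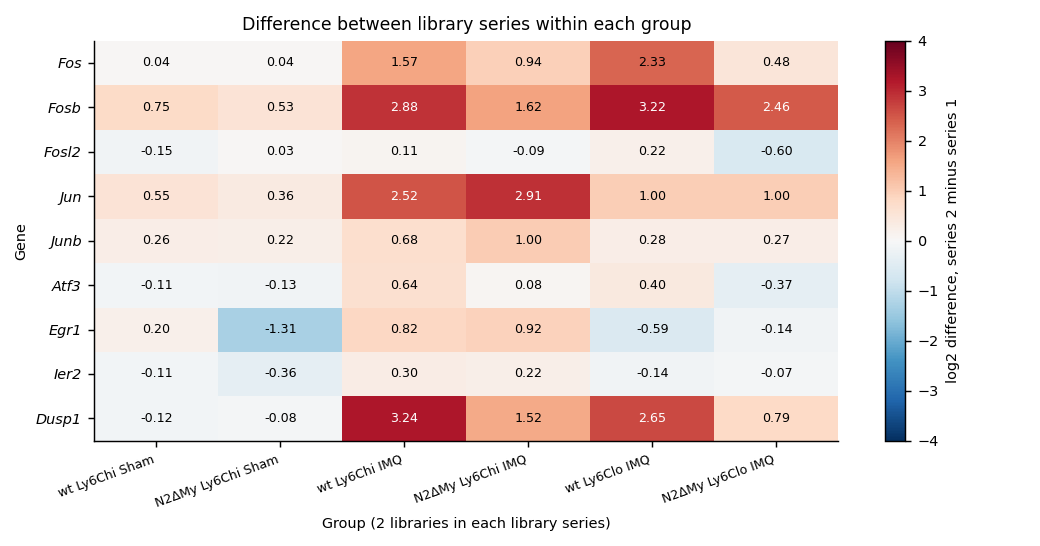
Log2 ratio of series 2 to series 1 for each of the 9 tested members in each group (mean of 2 libraries each). For *Dusp1* the value was -0.12 and -0.08 in the Sham groups and 3.24, 1.52, 2.65 and 0.79 in the IMQ groups.

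Other genes moved with the series. In the Ly6Chi IMQ libraries *Ppp1r15a*, a stress-induced regulator of translation and itself an immediate early gene, read 176 to 215 in series 1 and 853 to 1145 in series 2, against 268 to 738 and 635 to 1227 in the Sham libraries. *Hspa1a*, an inducible heat shock protein gene, read 3 to 25 in series 1 and 27 to 99 in series 2 of the Ly6Chi IMQ libraries, against 68 to 244 and 35 to 179 in Sham. Of 10 heat shock genes tested 4 were called higher in series 2 (*Hspe1*, *Hspa1a*, *Hspa1b*, *Hsp90aa1*), and of 29 other immediate early genes 6 were, where 8.99% of all genes were called in either direction, led by *Ppp1r15a* (1.85) and *Nr4a2* (1.56). The summed level of 9 neutrophil markers was 2 to 59 in the Sham libraries, 923 to 1478 in the Ly6Chi IMQ libraries of series 1 and 1459 to 5229 in those of series 2, with *Ly6g* at 0 in all IMQ libraries. In the Ly6Chi IMQ libraries *S100a8* (402 to 3443) and *S100a9* (499 to 1739) made up most of that sum. Each of the other neutrophil markers read at most 19 there. Red cell markers summed to 0 to 10 and 25 to 1531 in the Ly6Chi IMQ libraries of series 1 and 2. Mitochondrial RNA made up 5.26% to 8.64% of the values in series 1 and 5.89% to 8.93% in series 2. The gate was set to leave out neutrophils and red cells. The part of each of these in the levels of the members was not tested.

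Next, Ly6Clo were compared with Ly6Chi monocytes under IMQ. *Fosl2* was lower in wt Ly6Clo monocytes, at 1370, 1574 and 1588 normalized counts in replicates 1, 3 and 4 and slightly below 1370 in replicate 2, against the 2115 to 2516 of wt Ly6Chi IMQ given above. The groups do not overlap, and the log2 fold change was -0.69 ± 0.10 (n = 4 against 4, adjusted p = 0.000249, limma), at -0.74 within series 1 and -0.64 within series 2. It was the only member called of 9, where 24.6% of all genes were called. *Fos* read 662, 875, 3483 and 4220 in wt Ly6Clo IMQ, *Jun* 920, 825, 1712 and 1765, and *Dusp1* 765, 972, 4191 and 7033. In each of these genes both series 2 libraries lay above both series 1 libraries. Their subset differences were not called in the fit without a block. With a block for the replicate number all 3 were called, with *Fos* lower (-1.10, adjusted p = 1.06e-05), *Jun* higher (1.00, adjusted p = 0.00341) and *Dusp1* higher (0.73, adjusted p = 0.000499). That made 4 of 9 members against 28.5% of all genes. *Jun* was also called without the block when wt Ly6Chi IMQ replicate 3 was left out (1.53). It differed by 1.76 within series 1 and by 0.24 within series 2.

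In N2ΔMy, limma called 0 of 9 members between Ly6Clo and Ly6Chi monocytes under IMQ, with 2 of 9 at an unadjusted p under 0.05, where 17.4% of all genes were called. *Atf3* read 1086, 1109, 821 and 879 in N2ΔMy Ly6Clo IMQ, above the 616 to 758 of N2ΔMy Ly6Chi IMQ, with a log2 fold change of 0.54 (adjusted p = 0.0107) under the fold threshold. *Fosl2* read 2571, 2694, 1563 and 1920, below the 2823 to 3321 of the Ly6Chi libraries, with a difference of -0.48 (adjusted p = 0.0502). *Fos* in N2ΔMy Ly6Clo IMQ read 3634, 3058, 4429 and 4889, *Jun* 940, 979, 1683 and 2184, and *Dusp1* 3678, 1986, 4056 and 5376. With the block *Jun* (1.31, adjusted p = 0.0108) and *Dusp1* (0.93, adjusted p = 0.00066) were called higher, 2 of 9 against 20.5% of all genes. For *Jun* the subset difference itself differed between the library series, at 2.27 in series 1 and 0.36 in series 2 (difference -1.91, adjusted p = 0.0271). This test called 1 of 9 members and 175 of the 11230 genes in N2ΔMy, and 0 members and 0 genes in wt. The comparisons of treatment and of subset share the Ly6Chi IMQ libraries, so low values of those libraries in series 1 enter both.

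**Figure D4:**
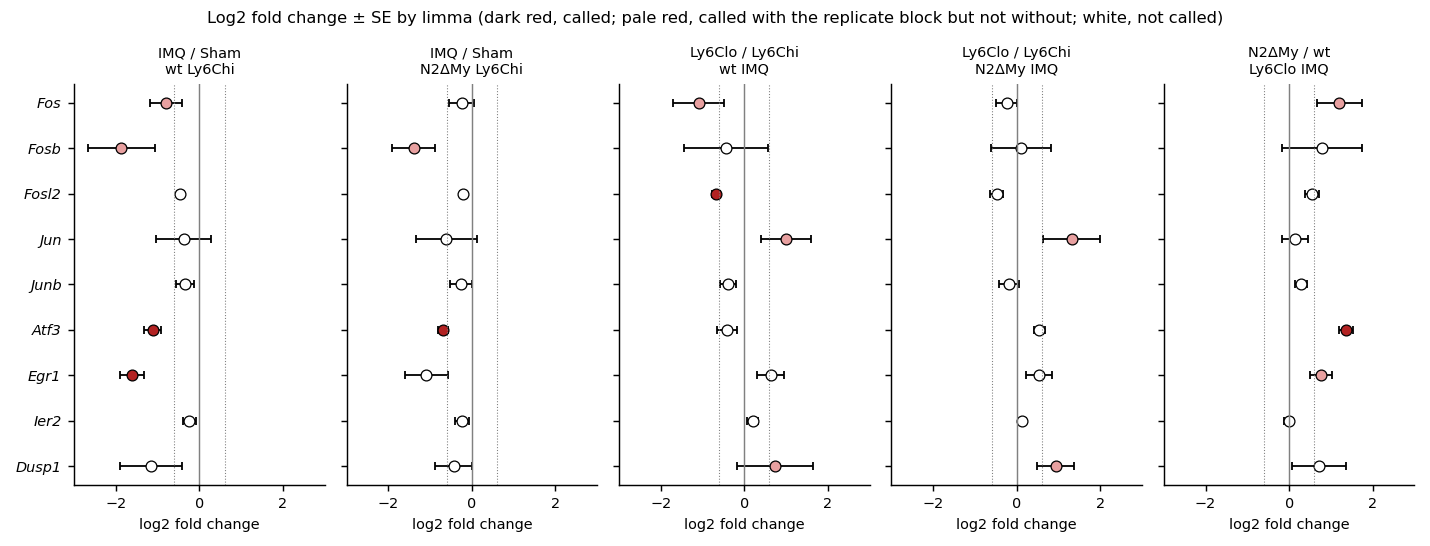
Log2 fold change (± SE, limma, n = 4 against 4) of the 9 tested members in 5 comparisons, dark red where called, pale red where called with the replicate block but not without it, white where not called, with dotted lines at 0.6 in either direction. *Atf3* is called in 3 of the panels, at -1.12, -0.70 and 1.36.

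The third question was what loss of *Notch2* changed. In Ly6Clo monocytes under IMQ, *Atf3* was higher in N2ΔMy than in wt. It read 364, 292, 486 and 383 in the wt libraries and 1086, 1109, 821 and 879 in the N2ΔMy libraries, means of 381 ± 80.1 and 974 ± 145 (SD, n = 4) and a ratio of 2.55. The lowest N2ΔMy library was above the highest wt library. The log2 fold change was 1.36 ± 0.17 (adjusted p = 0.001, limma), at 1.75 within series 1 and 0.98 within series 2. *Atf3* was the only member called of 9, where 4.78% of all genes were called. Whether its rise from wt to N2ΔMy was larger in Ly6Clo than in Ly6Chi monocytes depended on the model: the interaction was 0.95 ± 0.28 with an adjusted p of 0.157 (0 of 9 members called and 1 at an unadjusted p under 0.05, against 1.03% of all genes called), and 0.95 ± 0.24 with an adjusted p of 0.0422 under the replicate block (1 of 9, against 2.41%).

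*Fos* in Ly6Clo monocytes followed the genotype in series 1, where the wt libraries read 662 and 875 and the N2ΔMy libraries 3634 and 3058. In series 2 the wt libraries read 3483 and 4220 and the N2ΔMy libraries 4429 and 4889. The genotype difference of *Fos* was 2.13 in series 1 and 0.28 in series 2, and it differed between them by -1.85 (adjusted p = 0.041), the only gene of the 11230 called in that test. Without the block the *Fos* difference was 1.20 ± 0.53 (adjusted p = 0.245), and with it *Fos* (1.20, adjusted p = 0.0192) and *Egr1* (0.77, adjusted p = 0.0383) joined *Atf3*, 3 of 9 members against 8.36% of all genes. *Egr1* read 126, 151, 96 and 87 in wt Ly6Clo IMQ and 181, 224, 123 and 270 in N2ΔMy, groups that overlap. *Fosl2* was 0.54 ± 0.16 higher in N2ΔMy (adjusted p = 0.0868), with a difference of 0.95 within series 1 and 0.13 within series 2. The N2ΔMy Ly6Clo libraries also held more RNA of Ly6Chi markers, as given above, and of 7 macrophage markers (7585 to 11752, against 3963 to 6133 in wt), with *Timd4* at 0 in all 4 N2ΔMy libraries. *Adgre1*, which all monocytes here expressed, made up most of that sum (5569 to 10202 against 3876 to 5977). Of the 5 macrophage markers tested 4 were called higher in N2ΔMy, with a median log2 difference of 4.18 over the 5. These were *C1qa* (4.78), *Mertk* (4.41), *C1qc* (4.18) and *C1qb* (3.88), the last at 742 to 1193 against 37 to 102 normalized counts. *C1qa*, *C1qc* and *Mertk* passed the filter on low values only through the N2ΔMy Ly6Clo libraries. Their highest values in any other group were 26, 38 and 36. *Timd4* and *Vcam1* read at most 4 and were not tested. The share of markers called and the median thus partly follow from the filter. *Atf3* itself read 356 to 775 in the 8 Ly6Chi IMQ libraries, all below the lowest N2ΔMy Ly6Clo library (821). The part of either marker set in the difference was not tested.

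In Ly6Chi monocytes limma called 0 of 9 members between genotypes, both under IMQ (2 of 9 at an unadjusted p under 0.05, 0.0267% of all genes called, namely *Notch2*, *C3ar1* and *Lyz1*) and under Sham (0 of 9 at an unadjusted p under 0.05, 0.0178% of all genes called, namely *Notch2* and *Lyz1*). Under IMQ *Fosl2* read 3321, 2855, 2823 and 2956 in N2ΔMy and 2444, 2115, 2516 and 2401 in wt, groups that do not overlap, yet the difference of 0.34 ± 0.09 had an adjusted p of 0.488. Under Sham the fold changes of the 9 members ran from -0.21 (*Fosb*) to 0.35 (*Egr1*).

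Across all 6 groups, the F-test of limma at an adjusted p of at most 0.01 called 3 of 9 members, *Fosl2* (adjusted p = 4.73e-08), *Atf3* (1.36e-07) and *Egr1* (0.0029), where 43% of all genes were called. The order of *Fosl2* group means was N2ΔMy Ly6Chi Sham (3470 ± 57.5), wt Ly6Chi Sham (3254 ± 317), N2ΔMy Ly6Chi IMQ (2989 ± 229), wt Ly6Chi IMQ (2369 ± 176), N2ΔMy Ly6Clo IMQ (2187 ± 537) and wt Ly6Clo IMQ (1471 ± 128). Of these neighbours only N2ΔMy and wt Ly6Chi IMQ did not overlap. *Atf3* ran from wt and N2ΔMy Ly6Chi Sham (1094 ± 130 and 1091 ± 166) over N2ΔMy Ly6Clo IMQ (974 ± 145) to N2ΔMy Ly6Chi IMQ (667 ± 65.9), wt Ly6Chi IMQ (521 ± 180) and wt Ly6Clo IMQ (381 ± 80.1). Its only neighbours without overlap were the N2ΔMy Ly6Clo and Ly6Chi IMQ groups. *Ier2*, which encodes a nuclear protein, had group means of 1432 to 1802 and was called in none of the comparisons between groups. *Junb*, a Jun protein that can act against *Jun*, read 2761, 4239, 3620 and 4668 in wt Ly6Chi Sham and 2221, 2425, 3369 and 4125 in wt Ly6Chi IMQ, groups that overlap. It read 1979 to 4869 over the 24 libraries and was called in none of the 7 comparisons of 2 groups.

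The genes whose pattern was most like that of the called members were named as a description. Over the 6 group means *Fosl2* went most closely with *Agk* (Pearson r = 0.998), *Wipf1* (0.997) and *Socs6* (0.996), and over the 24 libraries the same pairs correlated at 0.53, 0.86 and 0.92. *Atf3* went with *Tagap* (0.989), *Brd1* (0.989) and *Aim1* (0.985), at 0.54, 0.75 and 0.72 over the 24 libraries. For *Egr1* these were *Ubtf* (0.994), *Hsph1* (0.993) and *Gm26778* (0.990), at 0.77, 0.64 and 0.47. These are 6 points searched over 11230 genes, and the points share the library series.

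Other genes of the same pathways were read from fixed lists. With IMQ in Ly6Chi monocytes, the bZIP factor *Batf3*, which pairs with Jun proteins and is needed for a dendritic cell lineage, read 139 ± 45.4 against 409 ± 74.2 in wt (-1.60, adjusted p = 0.00124) and fell by 1.78 on the log2 scale in N2ΔMy. Markers of dendritic cells summed to 775 to 1574 in the Sham and 253 to 478 in the Ly6Chi IMQ libraries, although the gate was set against MHC-II+ cells. Of the 4 dendritic markers tested 2 were called lower in each genotype, *Cd209a* (-6.31 in wt, -7.33 in N2ΔMy) and *Flt3* (-0.84 and -0.88), where all 9 members had fold changes below 0 as well. Their part in the levels of *Batf3* and of the members was not tested. Among 29 other immediate early genes, 2 rose and 4 fell in wt, while 3 rose and 2 fell in N2ΔMy, where 9.49% and 8.7% of all genes were called in the 2 genotypes. *Socs3*, a feedback inhibitor of cytokine signalling, rose by 1.53 in wt and 1.61 in N2ΔMy, *Zfp36l1*, which promotes mRNA decay, by 1.72 and 1.79, and *Tnfaip3*, an inhibitor of NF-κB, fell by 1.06 and 1.09. Of 7 other MAP kinase phosphatases, *Dusp16* rose (2.46 in wt, 1.41 in N2ΔMy) and *Dusp6*, which acts on ERK, fell, from 4359 ± 546 to 2184 ± 375 normalized counts in wt (adjusted p = 0.000657) and by 1.17 on the log2 scale in N2ΔMy. Of 21 upstream kinases and promoter-bound factors 0 were higher and 1 was lower in each genotype. Of 10 heat shock genes 4 were lower in wt and 2 in N2ΔMy, among them *Hsph1* (-0.95 and -0.83) and *Dnaja1* (-0.89 and -0.72).

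Between subsets, 4 of the 7 other MAP kinase phosphatases were higher and 1 lower in wt Ly6Clo monocytes, with *Dusp16* at 14278 ± 1325 against 905 ± 392 normalized counts (4.06, adjusted p = 6.23e-07), *Dusp5* at 2.92 and *Dusp2* at 2.71. In N2ΔMy 3 of 7 were higher, *Dusp16* (4.23), *Dusp5* (3.04) and *Dusp2* (2.64), and none lower. Over all genes 24.6% were called in wt and 17.4% in N2ΔMy. The medians of these 7 genes were 0.82 and 0.99, beside -0.01 over all genes in each genotype. Among the other immediate early genes 7 of 29 rose and 2 fell in wt, and 6 rose and 1 fell in N2ΔMy. *Nr4a1*, the nuclear receptor required for Ly6Clo monocytes and also on the list of their markers, was 17890 ± 2091 in wt Ly6Clo against 4986 ± 817 in wt Ly6Chi IMQ (1.85) and differed by 1.99 in N2ΔMy. *Plk2* (2.83 and 2.85) and *Trib1* (2.15 and 1.98) were higher in both genotypes. *Jdp2*, a repressing partner of Jun proteins, was higher in Ly6Clo monocytes of both genotypes (1.27 and 1.32), and *Maf* was lower in wt (-0.82) and higher in N2ΔMy (0.88). The difference of *Maf* between genotypes was tested and called (interaction 1.70 ± 0.28, adjusted p = 0.00408). Of the 10 heat shock genes limma called 0 between subsets in either genotype, with 4 at an unadjusted p under 0.05 in each.

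Between genotypes in Ly6Clo monocytes, *Maf* was higher in N2ΔMy (3132 ± 210 against 548 ± 132, 2.54, adjusted p = 1.2e-05), the only bZIP factor of 11 called, where 4.78% of all genes were. *Myc*, a growth-promoting transcription factor, was also higher (76.3 ± 48 against 10.3 ± 6.02, 2.68, adjusted p = 0.0133), as was *Rhob* (0.63), whereas *Nr4a1* (-0.86) and *Socs3* (-0.80) were lower, 2 of 29 immediate early genes in each direction. Of the phosphatases *Dusp2* (-1.06) and *Dusp16* (-1.02) were lower and *Dusp7* (0.71) was higher. Limma called 0 of 21 upstream factors and 0 of 10 heat shock genes, with 4 of each at an unadjusted p under 0.05. In Ly6Chi monocytes it called 0 of the 78 genes of these lists between genotypes, with 14 at an unadjusted p under 0.05 under IMQ and 5 under Sham.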

How the data were processed

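Sorted monocytes were profiled by RNA-seq in 24 libraries. Per the labels and the study's methods, the authors made stranded total RNA libraries, read 75 bp single ends, trimmed them with Trim Galore 0.4.4, aligned them with STAR 2.5.3a to GRCm38.p6 (GENCODE M17) and normalized with DESeq2. The deposited score is the count per gene divided by a size factor, which the authors rounded to whole numbers, so no count model was run. The table also held 5 columns of the authors' own comparison, which were not used. Genes reaching 50 in at least 1 library (11230 of 53715) were fitted on log2(value + 1) with limma 3.58.1 (R 4.3.3), with a variance trend and the libraries of the groups compared. Genes were called at an adjusted p (Benjamini-Hochberg) of at most 0.05 and a log2 fold change of at least 0.6, with an adjusted p of 0.01 as the limit in the F-test. Single members were tested by exact permutation (two-sided, SciPy 1.17.1). p-values measure the spread between libraries. On simulated data with 200 changed genes the comparison of genotypes in Ly6Clo monocytes recovered 123, 184 and 194 at log2 changes of 1, 2 and 3.

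Because size factors were divided out before rounding, depth was recovered from the spacing of the values, giving 9520037 to 19759572 gene reads a library. Same-numbered libraries of the groups compared deviated together (r = 0.160 to 0.619, each above 0.1), so the replicate number was taken to pair libraries in the alternative with a block. Within a library series r was -0.116 to 0.0936 for IMQ against Sham and at most 0.263 elsewhere, and for 6 of 28 libraries, 4 of them in IMQ against Sham, another number correlated higher, so the series enters this pairing. Libraries were grouped by the labels, and the alternatives tried were scaling, filters, pseudocounts, the variance trend, the block, the library series and leaving out each library.

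The members and the gene lists were chosen with earlier results of these data known. All 10 members are named throughout, with at most 4 called genes of each list and comparison, and the 3 genes most like each member. The result of a gene on the list of other bZIP factors is not reported here.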

Additional observations from a re-analysis of the deposited data

Results flagged for a closer look

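In 56 sets of 4 libraries, a single library stood apart from the rest of its group in 2, and chance alone marks about 1 in 20 such sets. *Junb* read 2921 in wt Ly6Clo IMQ replicate 4, against 1979 to 2110 in the other libraries of that group. *Jund* read 1 in N2ΔMy Ly6Chi Sham replicate 2 and was listed at 0 in the others, a difference of a single normalized count. The subset difference of *Jun* in N2ΔMy mice under IMQ was smaller in library series 2 than in series 1 by a difference of -1.91 on the log2 scale (limma, adjusted p = 0.0271), 1 of 175 genes called in that test. The genotype difference of *Fos* in Ly6Clo monocytes was likewise smaller in series 2, by a difference of -1.85 (adjusted p = 0.041). The rise of *Atf3* from wt to N2ΔMy was larger in Ly6Clo than in Ly6Chi monocytes by 0.95 in the model with the replicate block (adjusted p = 0.0422), and this difference was not called without the block (adjusted p = 0.157).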

How the results depend on the processing

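Counts of members called did not change with TMM scaling, a filter of at least 50 in 4 libraries, no variance trend, a pseudocount of 0.1, a floor of 1.1 or all 24 libraries in 1 fit. Without a filter on low values, members called went from 2 to 1 for IMQ against Sham in wt, from 0 to 1 for Ly6Clo against Ly6Chi in N2ΔMy and from 0 to 1 for the interaction of genotype and subset (2.78%, 5.29% and 0.28% of all genes). The member added in the last 2 was *Jund*, at 1 to 5 normalized counts in N2ΔMy Ly6Clo IMQ and at 0 in the other IMQ groups, so these calls rest on values near the floor. The replicate block gave 4 (wt) and 2 (N2ΔMy) for IMQ against Sham, 4 and 2 for Ly6Clo against Ly6Chi, 3 for genotype in Ly6Clo, 1 for that interaction and 6 for the F-test (57.1% of all genes, against 43% without the block), and it changed no other call. The library series as a covariate gave 4 and 2 (11.7% and 10.7% of all genes), 4 and 2 (27.4% and 21%), 2 for genotype in Ly6Clo (7.39%) and 6 for the F-test (54.7%). Series 1 alone gave 5 and 3 (8.44% and 7.41% of all genes), 5 and 4 (23.1% and 16.6%), 4 (5.52%), and 2 for the interaction (1.19%), and series 2 alone gave 1 and 0 for IMQ against Sham (5.27% and 7.24%) and 2 and 1 for Ly6Clo against Ly6Chi (18.2% and 22.1%). With either series alone there are 2 libraries a group. Leaving out 1 library gave 2 to 3 members called for IMQ against Sham in wt, 1 to 2 in N2ΔMy, 1 to 2 and 0 to 1 for the subsets in wt and N2ΔMy, 1 to 2 for genotype in Ly6Clo, 2 to 4 for the F-test and 4 to 4 for the library series, with 0 to 0 for the rest. *Fosb* was called in wt without Ly6Chi IMQ replicate 3 (-2.57) and in N2ΔMy without its replicate 3 (-1.91), *Jun* for the subsets in wt without Ly6Chi IMQ replicate 3 (1.53), *Atf3* for the subsets in N2ΔMy without replicate 3 of Ly6Chi (0.60) or of Ly6Clo (0.62), and *Fosl2* for genotype in Ly6Clo without N2ΔMy replicate 3 (0.69). *Egr1* missed the F-test threshold without wt Ly6Chi IMQ replicate 1 (adjusted p = 0.0104), and *Atf3* in wt had an adjusted p of 0.0575 for IMQ against Sham without the filter. No called difference of a member changed sign. Differences that were not called changed sign in 26 of 81 cases with series 2 alone, 7 of 81 with series 1 alone, 1 of 90 with TMM scaling and 101 of 1008 when 1 library was left out. With series 2 alone these included IMQ against Sham for *Jun* (-0.38 to 0.61) and *Dusp1* (-1.17 to 0.52) in wt and for *Fos* (-0.24 to 0.20), *Jun* (-0.61 to 0.66) and *Egr1* (-1.09 to 0.02) in N2ΔMy. The causes of these changes were not tested. Over all genes the block moved the calls from 537 to 939 for genotype in Ly6Clo, from 3 to 54 for genotype in Ly6Chi under IMQ and from 116 to 271 for the interaction of genotype and subset. *Fosb* read as low as 18 and *Egr1* as low as 40 normalized counts, and *Jund* was too low to enter the test with the filter.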
